A study of Rattus norvegicus with 17 samples.

Results

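Cholesterol synthesis was examined through 8 genes of the mevalonate and sterol pathway in the hippocampus of adolescent Long-Evans rats, taken by symbol from the 34322 genes of the table: Srebf2, Insig1, Hmgcs1, Idi1, Fdft1, Sqle, Cyp51 and Dhcr7. The rule that picks them is by gene name. All 8 passed the filter on low counts in every comparison. None of the 8 encodes a receptor or carrier for cholesterol uptake, so uptake is covered through a separate list of genes.

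Offspring of 3 groups of dams were sequenced, which differed in what the dam was fed while pregnant. ET dams drank a liquid diet holding 6.7% ethanol from gestational day 0 to 20. PF dams were pair-fed, with a control liquid diet lacking ethanol in an amount matched to an ET dam, and AD dams had chow ad libitum. All dams had chow from day 20. Tissue was taken at 36 to 38 days of age, from males and females, as 1 bulk hippocampus per animal. The groups hold 5 ET, 6 PF and 6 AD animals, and each group came from 1 litter, so that diet and litter cannot be told apart and p-values measure the spread between littermates. The 17 libraries held 10853947 to 17498392 assigned fragments. In 3 of them, ET replicate 2, AD replicate 4 and the PF animal 11f6, the summed level of 10 choroid plexus markers was 128578 to 151520 normalized counts, against 23264 or less in every other library. These 3, which the study also set aside, were left out. That leaves 14 libraries (4 ET, 5 PF, 5 AD), and results with all 17 are given where they differ. Of the 14, PF replicate 2 (23264) and ET replicate 1 (20966) stood above the other 12 (2839 to 6576). Pineal markers summed to 13682 normalized counts in AD replicate 6 and to 104 or less elsewhere. All 8 hippocampal neuron markers examined were above 0 in every library, from Prox1 of dentate granule cells (110 to 680 normalized counts) to Neurod6 of pyramidal cells (1956 to 3699). The right hippocampus was used in 4 animals (ET replicate 2, PF replicates 1 and 6, AD replicate 3) and the left in the rest. In 2 AD libraries the Y-linked counts went against the labelled sex, and AD animals were therefore kept out of every comparison of the sexes. In bulk tissue, fewer cells of a type and less RNA per cell cannot be told apart.

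Brain cholesterol is made within the brain, since lipoproteins of the blood do not cross the blood-brain barrier, and much of it goes into myelin. Its synthesis is governed by feedback. When sterols in the endoplasmic reticulum run low, the SREBP2 precursor encoded by Srebf2 is escorted by SCAP to the Golgi, cleaved, and its amino-terminal part enters the nucleus and raises transcription of the synthesis enzymes. When sterols are plentiful, INSIG proteins hold SCAP and SREBP2 back. Because the enzymes share this regulator, the sequence before their start sites is commonly searched for its binding element and for the sites of its partners NF-Y and SP1.

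Sequence upstream of the start was found for 6 of the 8 genes in RefSeq promoters (assembly GRCr8). The letters TCACNCCA (after the sterol regulatory element), CCAAT (NF-Y), CACGTG (an E-box, which SREBP proteins also bind) and GGGCGG (SP1) were searched on both strands of the 250 bases before the start. TCACNCCA was found in 1 of the 6 genes, Srebf2, against 3.25% of 27457 promoters searched the same way. CCAAT was found in 4 of 6 (34.3% of all promoters), CACGTG in 1 of 6 (5.79%) and GGGCGG in 5 of 6 (32.4%). The 4 windows with a CCAAT match are shown, since among them is the 1 window with the sterol element and the 1 with the E-box. Each is written 5′ to 3′ on the gene's own strand and ends at the base before the start, with matches on either strand in capitals: Hmgcs1 at chr2:53382054-53382303 (plus strand), Insig1 at chr4:8057770-8058019 (minus strand), Srebf2 at chr7:115543057-115543306 (plus strand) and Idi1 at chr17:66547525-66547774 (minus strand).
Hmgcs1: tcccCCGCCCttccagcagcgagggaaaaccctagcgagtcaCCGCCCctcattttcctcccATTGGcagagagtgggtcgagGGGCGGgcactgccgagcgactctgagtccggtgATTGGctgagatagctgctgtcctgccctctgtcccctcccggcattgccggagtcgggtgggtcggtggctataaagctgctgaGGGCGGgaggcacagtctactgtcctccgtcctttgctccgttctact
Insig1: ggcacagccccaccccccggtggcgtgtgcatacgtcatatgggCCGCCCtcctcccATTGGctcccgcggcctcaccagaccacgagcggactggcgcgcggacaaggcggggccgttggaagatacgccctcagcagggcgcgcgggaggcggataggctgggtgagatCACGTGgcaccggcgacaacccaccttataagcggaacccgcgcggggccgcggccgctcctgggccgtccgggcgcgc
Srebf2: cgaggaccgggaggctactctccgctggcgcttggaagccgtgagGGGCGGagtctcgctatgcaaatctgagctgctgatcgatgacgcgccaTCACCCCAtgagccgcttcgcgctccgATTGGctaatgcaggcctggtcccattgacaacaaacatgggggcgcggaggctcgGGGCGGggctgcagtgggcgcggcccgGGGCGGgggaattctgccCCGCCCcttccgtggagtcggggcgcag
Idi1: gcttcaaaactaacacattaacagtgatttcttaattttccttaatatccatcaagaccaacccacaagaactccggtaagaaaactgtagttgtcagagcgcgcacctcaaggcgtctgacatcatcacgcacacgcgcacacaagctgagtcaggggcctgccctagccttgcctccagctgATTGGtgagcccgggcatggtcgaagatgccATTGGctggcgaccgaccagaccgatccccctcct
In the Hmgcs1 window the CCAAT matches, both on the reverse strand, began 188 and 133 bases before the start. In Srebf2 the TCACNCCA match began 156 bases before the start and the CCAAT match followed at 129. The Insig1 window held CCAAT at 193 and CACGTG at 79, and the Idi1 window held CCAAT at 66 and 35. Cyp51 and Dhcr7 had only GGGCGG among the letters searched, at 127 for Cyp51 and at 39 and 34 for Dhcr7, where the matches overlap by their ends. A match is a description of letters, not of binding.

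The regulators were at like levels in the 3 diets. Srebf2, in normalized counts, was 2999, 3693, 3469 and 3227 in ET replicates 1, 3, 4 and 5. It was 3426, 3105, 3595, 3228 and 3192 in PF (replicates 1, 2 and 3, animal 11f5 and replicate 6) and 3596, 3456, 3258, 3358 and 3439 in AD (replicates 1, 2, 3, 5 and 6). The lowest and the highest of the 14 values both belong to ET animals. Insig1, which encodes the sterol-induced anchor of the SREBP complex, was 874, 768, 707 and 826 in the same ET animals. Its PF values were 782, 798, 864, 669.8 and 753, and its AD values 714, 794, 819, 714 and 763. The group means of Insig1 were 793.7 ± 72.2 in ET (SD, n = 4), 773.4 ± 70.8 in PF (n = 5) and 761.0 ± 47.2 in AD (n = 5), and the ranges overlapped.

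Of the early enzymes, Hmgcs1 varied least and Idi1 most. Hmgcs1, the synthase that forms HMG-CoA, ran from 7132 to 7584 in ET, from 7139.6 to 7760.1 in PF and from 7051 to 8199 in AD. Its coefficient of variation within ET was 2.57%, the lowest of any member in any diet. Idi1, the isomerase that sets the balance of the isoprenoid building blocks, ran from 599.6 to 716.5 in ET, 593 to 704 in PF and 593 to 763 in AD. Fdft1, squalene synthase, commits the isoprenoids to sterols. Its normalized counts were 2045, 1851, 1874 and 1813 in ET, 1889, 1712, 1888, 1674 and 1792 in PF, and 1700.0, 1934, 1805, 1811 and 1756 in AD. The highest library was ET replicate 1 and the lowest the PF animal 11f5, and 3 of the 4 ET values lay within the PF range.

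The late enzymes act on squalene and on the sterols made from it. Sqle, squalene epoxidase, was 1387, 1545, 1555 and 1384 in ET, 1368, 1357, 1505, 1312 and 1347 in PF, and 1286, 1511, 1445, 1365 and 1291 in AD. All 4 ET values were above 4 of the 5 PF values, while PF replicate 3 lay among the ET animals. Cyp51, lanosterol demethylase, was 2799, 2390.2, 2535 and 2613 in ET and 2439, 2703, 2680.0, 2562 and 2639.5 in AD. In PF it was 2236, 2272, 2371 and 2226 in replicates 1, 2 and 3 and animal 11f5, but 3050.1 in replicate 6, above every other library of the series. Dhcr7, the reductase that makes cholesterol from its last precursor in the Kandutsch-Russell branch, was 664, 560.1, 567 and 599 in ET, 592, 554, 630.0, 523 and 633 in PF, and 525.7, 598, 632, 605 and 587 in AD. Its group means lay between 586.5 ± 48.0 in PF and 597.4 ± 47.4 in ET (SD, n = 5 and 4).

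**Figure D1:**
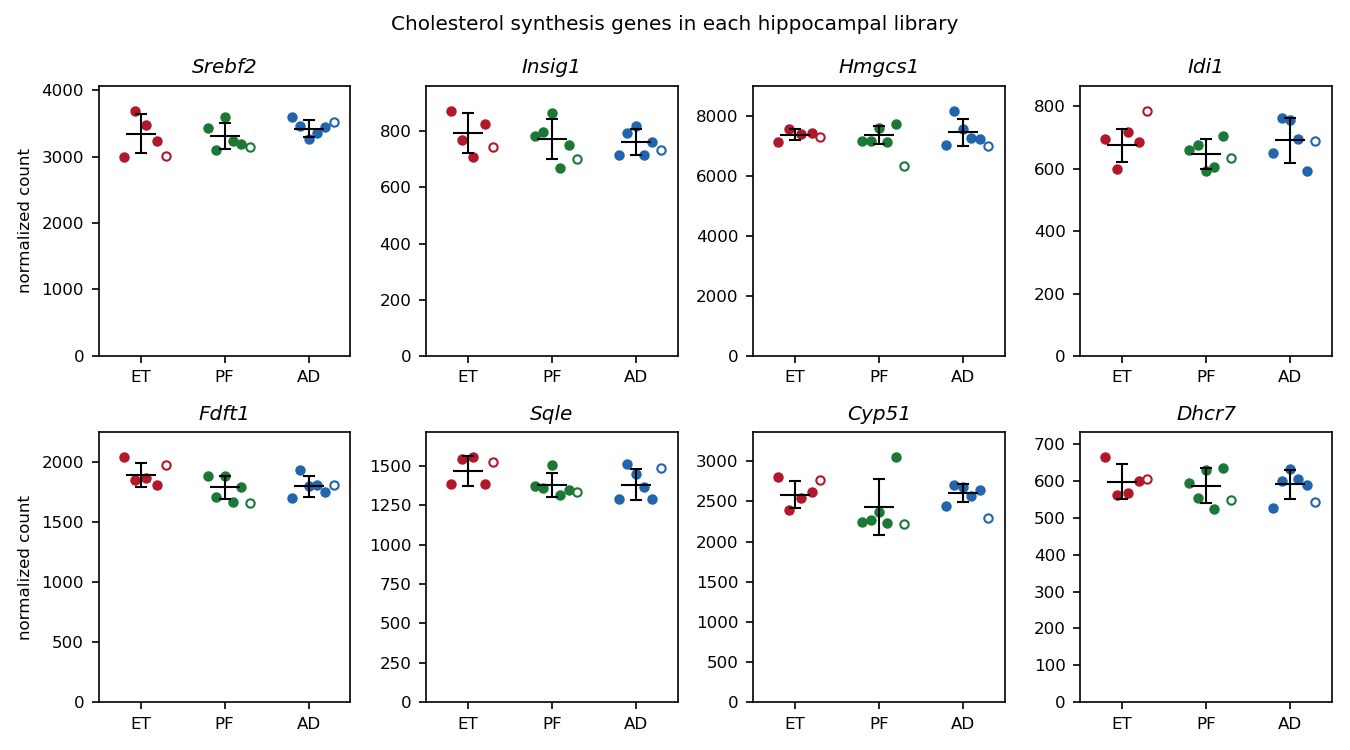
Normalized counts (y axis, from 0) of the 8 genes in each library by diet (x axis). Filled points are the 14 libraries compared, open points the 3 that were left out, and black bars the mean ± SD of the filled points. The diets overlap for every gene, and in Cyp51 the PF point at 3050.1 stands above the other PF libraries at 2217 to 2371.

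The central question of the study was what ethanol in the dam's liquid diet did to the offspring's hippocampus, which ET against PF addresses. No difference was detected in any of the 8 genes, and their ranges overlapped. All 8 point estimates were slightly higher in ET, as were those of 8339 of all 16068 genes tested. The 8 signs come from the same animals and are not independent. The log2 fold changes ran from 0.0057 for Hmgcs1 to 0.094 for Sqle. Their adjusted p-values were 0.680 to 0.992 (edgeR quasi-likelihood test, Benjamini-Hochberg over 16068 genes). Sqle had a mean of 1468 ± 94.9 in ET and 1378 ± 74.0 in PF, a log2 fold change of 0.094 ± 0.062 (SE) and a 95% interval of 0.971 to 1.17-fold. Cyp51 had a log2 fold change of 0.091 ± 0.099 and the widest interval of the 8, 0.914 to 1.24-fold. The change of Fdft1 was 0.085 ± 0.061 (0.966 to 1.16-fold) and that of Idi1 0.061 ± 0.073 (0.932 to 1.17-fold). Those of Insig1, Dhcr7 and Srebf2 were 0.040, 0.028 and 0.019, with standard errors of 0.085, 0.078 and 0.075. The Hmgcs1 interval, 0.924 to 1.09-fold, was the narrowest. No interval reached beyond 1.24-fold.

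At the stricter threshold (adjusted p below 0.01 together with a log2 change of more than 1.5 in either direction), 0 of 8 members were called between ET and PF, where 349 of 16068 genes (2.17%) were. At adjusted p below 0.05 with no limit on size, 0 of 8 were called, with 0.541% of all genes higher in ET and 3.59% lower. At an unadjusted p below 0.05 the count was 0 of 8 by edgeR and 0 by DESeq2, against 11.9% of all genes by edgeR and 10.4% by DESeq2. The median log2 fold change was 0.0505 over the members and 0.0053 over all genes tested. With all 17 libraries, Sqle (log2 fold change 0.115, adjusted p = 0.326 by edgeR) and Fdft1 (0.118, adjusted p = 0.333) had an unadjusted p below 0.05, as did 14.4% of all genes. The members' median was 0.0824 with all 17 libraries, 0.0176 with the replicate number as a block and 0.0232 without the PF animal 11f5. The block rests on 2 pairs of animals that share only a number, since the numbers did not pair the samples.

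**Figure D2:**
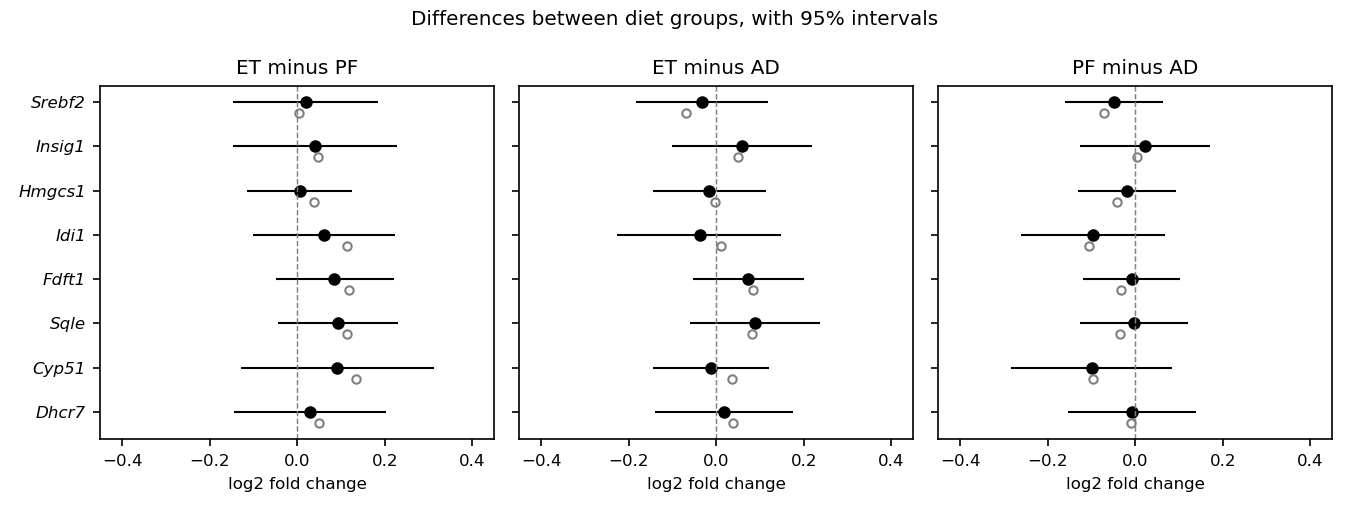
Log2 fold change (x axis) of each member (y axis) for ET minus PF, ET minus AD and PF minus AD. Filled points and lines are the estimate and its 95% interval over 14 libraries, open points the estimate over all 17. Every line crosses 0, and the widest for ET minus PF, Cyp51, spans -0.129 to 0.312.

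ET against AD asks how ethanol-exposed animals compared with chow-fed ones, which differ also in the form and amount of the dam's food. No difference was detected in any of the 8 genes. Log2 fold changes ran from -0.038 for Idi1 (SE 0.085) to 0.088 for Sqle (SE 0.067), 4 were positive and 4 negative, and every adjusted p was 1 by edgeR. The intervals spanned at most 0.855 to 1.11-fold for Idi1 and 0.959 to 1.18-fold for Sqle. The members' median was 0.0027, beside 0.0028 over all genes. With all 17 libraries it was 0.0382, beside 0.0016, and with the replicate number as a block 0.0346, over 3 pairs that share only a number. With 1 library left out in turn it ran from -0.0203 (without AD replicate 1) to 0.0354 (without ET replicate 3). In this comparison 2 of 15749 genes (0.0127%) passed the stricter threshold and 0 of 8 members did. At adjusted p below 0.05, 0% of genes were higher and 0.0127% lower, again with 0 members, and at an unadjusted p below 0.05 the counts were 0 of 8 (edgeR and DESeq2), 2.74% of all genes by edgeR and 2.02% by DESeq2.

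PF against AD compares the 2 control diets and shares its PF animals with the first comparison. Of the 8 genes, 7 had point estimates slightly lower in PF, beside 8129 of all 15960 genes tested, and no difference was detected. Cyp51 had the largest difference, a log2 fold change of -0.10 ± 0.084 (2431 ± 351 in PF against 2604 ± 107 in AD, adjusted p = 0.622 by edgeR), followed by Idi1 with -0.096 ± 0.075 (647.7 ± 47.3 against 691.5 ± 71.7, adjusted p = 0.592). Insig1 was the only positive one, at 0.022 ± 0.068. The others lay between -0.048 for Srebf2 and -0.0023 for Sqle. The members' median was -0.0131, beside -0.0029 over all genes. It was -0.038 with all 17 libraries, beside -0.0090, and 0.0011 with the replicate number as a block, over 4 pairs that share only a number. With 1 library left out it ran from -0.0358 (without PF replicate 6) to 0.0072 (without AD replicate 2). Of 15960 genes, 327 (2.05%) passed the stricter threshold, 4.32% were higher and 0.846% lower at adjusted p below 0.05, and 16.4% had an unadjusted p below 0.05, while the count of members was 0 of 8 at each limit, and 0 by DESeq2, where 14.3% of genes had an unadjusted p below 0.05.

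The values of Cyp51 depended on PF replicate 6, a right hippocampus singled out here because its value was the highest of the series. Without it, the remaining 4 PF animals (2226 to 2371) lay below all 5 AD animals (2439 to 2703). They also lay below all 4 ET animals (2390.2 to 2799). Dropping the highest PF value favours such a separation, so it is no test. The share of all genes that separate likewise was not computed. The PF minus AD log2 fold change was then -0.194 with an adjusted p of 0.0276 (edgeR), below 0.05 but short of 0.01. This was the smallest adjusted p of a member over all alternatives and libraries left out. In that fit 1.90% of all genes were lower and 5.40% higher at adjusted p below 0.05. ET minus PF was then 0.186, with an unadjusted p below 0.05, as had 2083 of 16002 genes, but an adjusted p of 0.208. Among left hippocampi alone the PF minus AD change of Cyp51 was -0.176 (adjusted p = 0.132) and the ET minus PF change 0.177 (adjusted p = 0.381, edgeR). The 2 right PF hippocampi were not alike in Cyp51, at 2236 and 3050.1. PF replicate 6 also had the highest PF value of Hmgcs1, Idi1 and Dhcr7. The part of hemisphere in these values was not tested.

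Among the libraries left out, those of PF and AD both lay low in Hmgcs1 and Cyp51, while that of ET lay within its group's range for both. The PF animal 11f6 was below the other PF libraries for Hmgcs1 (6342), Fdft1 (1659) and Cyp51 (2217). AD replicate 4 was below the other AD libraries for Hmgcs1 (7015) and Cyp51 (2296), and ET replicate 2 was above the other ET libraries for Idi1 (787). The remaining 18 of these 24 values lay within the range of their diet.

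The sexes were compared within ET and PF (4 males and 5 females). No member passed: 0 of 8 at adjusted p below 0.05, where 0.0436% of genes did, and 0 of 8 at an unadjusted p below 0.05 (edgeR and DESeq2), where 1.87% did. Insig1 came nearest, with 739 ± 67.2 in males and 817.2 ± 48.7 in females, a log2 fold change of -0.156 ± 0.075 (adjusted p = 1, edgeR). With the 2 left-out ET and PF males added, it was -0.171, with an unadjusted p below 0.05 and an adjusted p of 1. Whether ET minus PF differed between the sexes was tested by the interaction, which had an unadjusted p above 0.05 and an adjusted p of 1 for each of the 8 (edgeR). The interaction was -0.217 ± 0.203 (log2, SE) for Cyp51, the farthest from 0. For it 0% of genes passed at adjusted p below 0.05 and 1.40% had an unadjusted p below 0.05.

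The spread of the members between animals was near that of genes of like level. Within diets their SD was 0.0644 (Hmgcs1) to 0.131 (Cyp51) on the log2 scale, with a median of 0.101, beside a median of 0.157 over 16265 genes and 0.111 over the 4955 genes whose mean normalized count lay in the members' range. Insig1, Idi1 and Cyp51 varied more than most genes of that range, with 54.8%, 59.1% and 61.5% of them below, and Hmgcs1 less, with 11.7%. The largest difference between any pair of diet means was 0.109, for Cyp51. That difference was smaller than the gene's SD between animals of a diet in 7 of the 8 members, down to 0.0168 for Hmgcs1, while for Fdft1 it was larger (0.0822 against an SD of 0.0749).

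The rest of the pathway was described with 5 lists of genes. Among 16 other sterol synthesis enzymes, 0 were called between ET and PF at adjusted p below 0.05 (0.541% of all genes higher, 3.59% lower). Of these 16 enzymes, 12 had positive estimates, beside 8339 of all 16068 genes, and the median was 0.0521. An unadjusted p below 0.05 was found for 2 of them, 1 in each direction (edgeR), for 0 in ET against AD and for 3 in PF against AD, beside 11.9%, 2.74% and 16.4% of all genes. DESeq2 called 0 in ET against PF, beside 4.63% of all genes. Lbr, which encodes the lamin B receptor, a nuclear membrane protein with sterol reductase activity, was the 1 gene of all 5 lists called by edgeR in any diet comparison of the 14 libraries, 1 of 58 in PF against AD, where 4.32% of all genes were higher and 0.846% lower. It was higher in PF (165 ± 2.6) than in AD (137 ± 9.9), by 0.268 ± 0.062 (adjusted p = 0.0256, edgeR), opposite in sign to the list's median of -0.053. It was not called by DESeq2, where the list's count was 0, beside 5.89% of all genes. In ET it was 137 ± 12.5, and ET minus PF was -0.266 ± 0.074 (adjusted p = 0.0908). Mvk, mevalonate kinase, had the smallest p of the list for ET minus AD, at -0.122 ± 0.092 (adjusted p = 1, edgeR).

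Among 9 genes of SREBP processing and sterol sensing, 0 were called in any comparison by edgeR or DESeq2. An unadjusted p below 0.05 was found for 1 in ET against PF, 0 in ET against AD and 2 in PF against AD (edgeR), beside 11.9%, 2.74% and 16.4% of all genes. Srebf1, whose SREBP1 products drive chiefly fatty acid synthesis, had the smallest p for ET minus PF (0.146 ± 0.058, adjusted p = 0.322, edgeR) and for PF minus AD (-0.179 ± 0.058, adjusted p = 0.121), with means of 1000 ± 55.8 in ET, 906 ± 45.1 in PF and 1030 ± 77.7 in AD. Rnf139, a ubiquitin ligase of the endoplasmic reticulum, had it for ET minus AD, at 0.067 ± 0.053 (adjusted p = 1).

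Uptake and intracellular transport were covered by 12 genes, of which 11 had enough counts to be tested. None was called by edgeR in the 14 libraries, and 2, 1 and 0 had an unadjusted p below 0.05 in ET against PF, ET against AD and PF against AD, beside 11.9%, 2.74% and 16.4% of all genes. Npc1, the lysosomal cholesterol exporter, had the smallest p in both comparisons with ET. Its means were 1410 ± 138 in ET, 1160 ± 90.3 in PF and 1210 ± 130 in AD, a log2 fold change of 0.280 ± 0.080 for ET minus PF (adjusted p = 0.109, edgeR) and 0.218 ± 0.093 for ET minus AD (adjusted p = 1). With all 17 libraries Npc1 was higher in ET than in PF by 0.288 (adjusted p = 0.0312), where 1.25% of all genes were, and DESeq2 called 1 gene of this list in the 14 libraries, beside 4.63% of all genes.

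Of 12 genes of efflux, storage and oxysterols, 0 were called by edgeR, and 2, 0 and 1 had an unadjusted p below 0.05 in the same order of comparisons, beside the same shares of all genes (11.9%, 2.74% and 16.4%). Ch25h, cholesterol 25-hydroxylase, was a low-count gene with means of 23.9 ± 3.86 in ET, 35.3 ± 4.92 in PF and 30.1 ± 4.93 in AD. Its ET minus PF change was -0.566 ± 0.156 (adjusted p = 0.0906, edgeR), which passed 0.05 with all 17 libraries (-0.518, adjusted p = 0.0412, with 4.21% of all genes lower), and its ET minus AD change was -0.324 ± 0.167 (adjusted p = 1). Nr1h2, the sterol-sensing receptor LXR beta, had the smallest p for PF minus AD (-0.285 ± 0.082, adjusted p = 0.0780), and DESeq2 called 1 gene of the list there, beside 5.89% of all genes. In the fatty acid synthesis list of 10 genes, 0 were called by edgeR or DESeq2, and 0, 1 and 1 had an unadjusted p below 0.05 (edgeR), against those shares of all genes. Fads1, a fatty acid desaturase, had the smallest p in both comparisons with ET (0.123 ± 0.057 for ET minus PF, adjusted p = 0.445, and 0.140 ± 0.060 for ET minus AD, adjusted p = 1). Acss2, which makes cytosolic acetyl-CoA from acetate, had it for PF minus AD (-0.124 ± 0.040, adjusted p = 0.116).

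**Figure D3:**
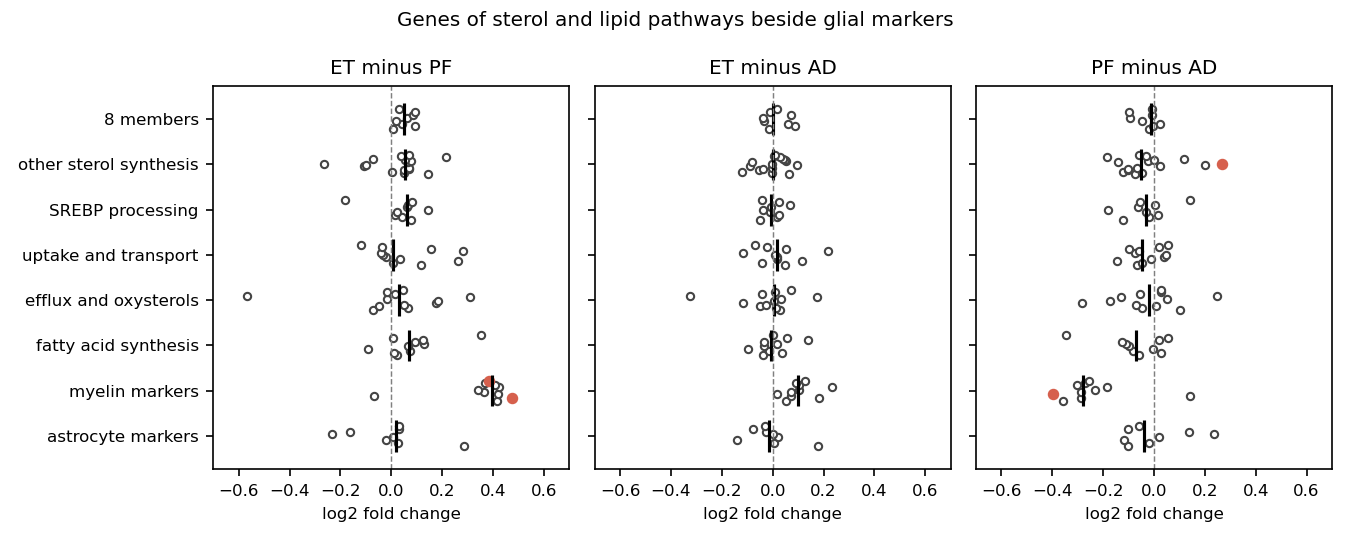
Log2 fold change (x axis) of each tested gene of the members, 5 pathway lists and 2 marker lists (y axis) in the 3 comparisons. Black bars are list medians, filled points genes with an adjusted p below 0.05 and open points all others. Members lie near 0 throughout, with ET minus PF medians of 0.0505 for the members and 0.397 for the 10 myelin markers.

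Markers of other cells and of neighbouring tissue are given beside the members. In ET against PF, 2 of 10 markers rose at adjusted p below 0.05, among them Ermn by 0.385 (adjusted p = 0.0484, edgeR). Of the 10, 9 had an unadjusted p below 0.05, beside 11.9% of all genes. DESeq2 called 7, beside 4.63% of all genes, and with all 17 libraries edgeR called 7, all higher in ET, beside 1.25% of all genes higher and 4.21% lower. Mog was the exception, at -0.068. In PF against AD, 1 of 10 fell, Mag by 0.397 (adjusted p = 0.0366, edgeR), where 0.846% of all genes were lower and 4.32% higher, 7 had an unadjusted p below 0.05 (16.4% of all genes), and the median was -0.280. In ET against AD 0 were called by edgeR or DESeq2 (0.0699% of all genes by DESeq2), 0 had an unadjusted p below 0.05, and the median was 0.098. The summed level of the 10 markers was 285393 to 370809 normalized counts in ET, 209843 to 287002 in PF and 244977 to 346892 in AD. No marker was at 0 in any library. Astrocyte markers, of cells known for making cholesterol in the adult brain, had a median of 0.017 for ET minus PF, with 0 of 8 called by edgeR or DESeq2 (1 at an unadjusted p below 0.05, beside 11.9% of all genes, and 1 called higher in ET by edgeR with all 17 libraries) and a summed level of 71798 to 85328 in ET and 68601 to 82237 in PF. The 6 thalamus and habenula markers, of tissue next to the hippocampus, had a median of 0.561 for ET minus PF, 0.169 for ET minus AD and -0.305 for PF minus AD (0.485, 0.186 and 0.016 with all 17 libraries). In ET against PF all 6 were positive, beside 8339 of all 16068 genes. Of the 6, 2 had an unadjusted p below 0.05 by edgeR (11.9% of all genes) and 4 by DESeq2 (10.4%), and edgeR called 0 and DESeq2 1 (4.63%). Their summed level was 1373 to 2551 in ET, 1012 to 1601 in PF and 1512 to 1728 in AD. The 6 meninges markers had medians of 0.357, -0.031 and -0.291 in the same order (0.545, 0.301 and -0.174 with all 17), with 0 called by edgeR, DESeq2 calling 1 in PF against AD (5.89% of all genes), and summed levels of 3200 to 6618 in ET, 2651 to 4966 in PF and 3920 to 6357 in AD. The 10 choroid plexus markers had medians of 0.128, 1.29 and 1.12 in the same order (0.0696, 0.124 and 0.055 with all 17), with 0, 5 and 4 at an unadjusted p below 0.05, beside 11.9%, 2.74% and 16.4% of all genes, and 0 called by edgeR or DESeq2, and summed levels of 4289 to 20966 in ET, 3354 to 23264 in PF and 2839 to 5592 in AD. No marker of these 3 lists was at 0 in any library. The part of these tissues in the members' levels was not tested.

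Each of the 8 members was also set against the summed myelin markers across animals within diets, and Cyp51 had the highest correlation of the 8. Over the 14 libraries, with values centred on their diet, Cyp51 had Pearson's r = 0.700 (permutation p = 0.0014) and Spearman's rho = 0.763 (permutation p = 0.0018), not adjusted for the 8 relations computed. Of 16255 genes other than the markers, 346 (2.13%) had an r at least as far from 0 as that of Cyp51, and the median distance from 0 was 0.269. For Cyp51 r was 0.682 without the 2 libraries farthest from the median of the myelin sum. A run without PF replicate 6, added after its values were seen, gave r = 0.766 over 13 libraries. Since that library was picked for its Cyp51 value, no test is given for the run. Its myelin sum, 287002, was the highest of the PF group. Dhcr7 had r = 0.622 and rho = 0.569 (permutation p = 0.0306 and 0.0538, also not adjusted). Adjusted over the 8 relations by Benjamini-Hochberg, the permutation p of r was 0.0114 for Cyp51 and 0.123 for Dhcr7. Srebf2 had r = -0.513, Insig1 0.50 and Hmgcs1 0.438, while Sqle stood at -0.039, each with a permutation p above 0.05. The part of myelin content in the levels of Cyp51 was not tested.

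**Figure D4:**
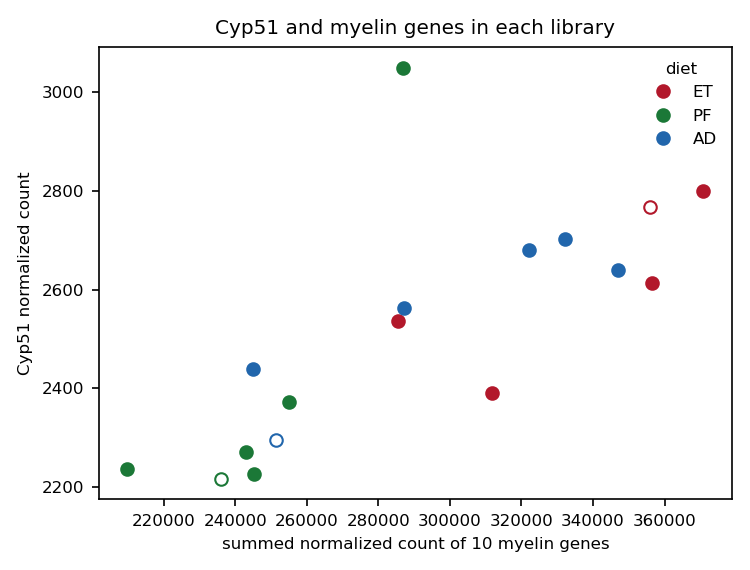
Normalized count of Cyp51 (y axis, not from 0) against the summed normalized count of 10 myelin genes (x axis, not from 0), 1 point per library, coloured by diet. Open points are the libraries left out. Within diets r was 0.700 over the filled points, and the PF library at 3050.1 lies above the others.

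Members were then compared with each other across animals. Over 28 pairs and 14 libraries, centred on diet, the median r was 0.332 and 22 pairs were positive. No pair passed an adjusted p of 0.05 by Pearson's r, while 5 had an unadjusted permutation p below 0.05 and 2 pairs passed by Spearman's rho. The strongest was Fdft1 with Dhcr7 (r = 0.747, permutation p = 0.0093, adjusted p = 0.0652; rho = 0.807, adjusted p = 0.0489; r = 0.740 without the 2 farthest libraries). Hmgcs1 with Sqle had r = 0.733 and rho = 0.719, and Insig1 with Dhcr7 r = 0.725 and rho = 0.675 (permutation, adjusted p = 0.0652 for r in both). Cyp51 with Dhcr7 had r = 0.688 (adjusted p = 0.0652) and rho = 0.754 (adjusted p = 0.0476, permutation). With all 17 libraries 3 pairs passed by Pearson's r, each of them with Dhcr7.

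Srebf2 stood apart from the other 7 genes, a contrast drawn after its values were seen and not tested. Its median r with the others was -0.218, and only 2 of its 7 pairs were positive, with Sqle (0.471) and Hmgcs1 (0.209). Its lowest was -0.516 with Idi1 (permutation p = 0.0583, adjusted p = 0.221). Of the 21 pairs among the other 7 genes, 20 were positive with a median of 0.387, and the exception was Sqle with Cyp51 (-0.049). With all 17 libraries the counts were again 2 of 7 and 20 of 21, while the median of Srebf2 was nearer 0, at -0.0628.

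**Figure D5:**
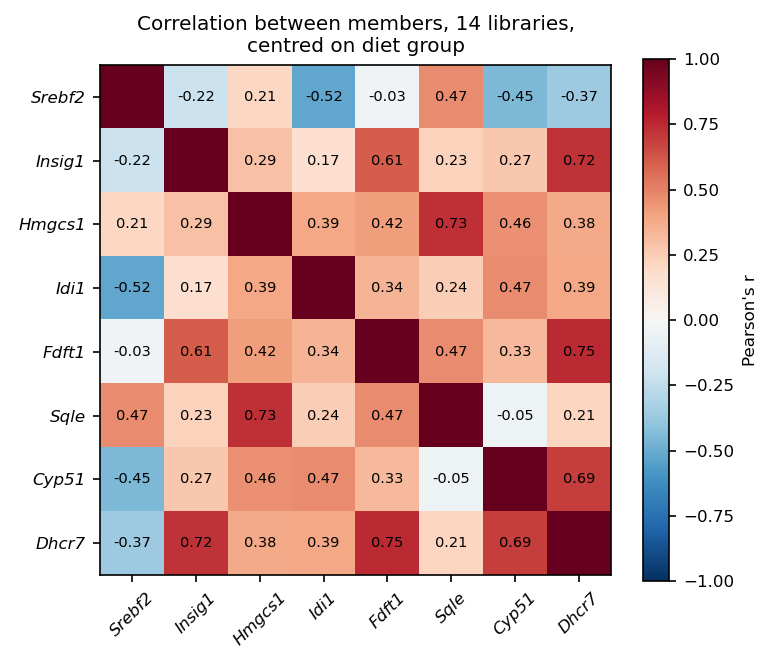
Pearson's r (colour and number) for each pair of members over 14 libraries, with log2 values centred on diet group. Most cells are positive, up to 0.75 for Fdft1 with Dhcr7, and the row of Srebf2 holds the lowest value, -0.52 with Idi1.

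Genes outside the list were ranked by their r with the mean standardized level of the 8 members, over 16257 genes and the same 14 libraries. Since the ranking chose them, no test is given. The 5 nearest were Fam184b (r = 0.873, rho = 0.908), Acss2 (0.860, rho 0.846), Zfp472 (0.829, rho 0.815), Armt1 (0.826, rho 0.837) and Zfpm2 (0.826, rho 0.749). Acss2, which is also in the fatty acid synthesis list, was thus second of the genes ranked. Of 58 genes of the 5 pathway lists, 6 were among the nearest 100, among them Acss2, Hsd17b7 (0.731), Msmo1 (0.717), Rnf139 (0.702) and Sc5d (0.657). Of the 16 other sterol synthesis enzymes, 4 were among these 100, including Hsd17b7, Msmo1 and Sc5d, which act after lanosterol. Srebf1 had r = -0.226 and Npc1 0.143. Of the members, Hmgcs1 and Fdft1 were nearest to the mean they help to form (0.805 each) and Srebf2 farthest (0.021).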

How the data were processed

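RNA-seq was measured in 17 rat hippocampi. Per the labels and the study's methods, the authors filtered stranded paired reads with fastp, aligned them to mRatBN7.2 with Bowtie2 (2.4.2), which does not split reads over introns, and counted fragments on exons with featureCounts (2.0.1), where a fragment could count for more than 1 gene. The strand setting is not given in the sources used here. They averaged 3 technical replicates per sample and deposited the averaged counts, which the averaging leaves fractional (handled here like expected counts) and which are not normalized. Promoter coordinates are on GRCr8, as RefSeq gives them, and were not converted. Column names are animal names, matched to labels by diet, sex, side and number; the PF animals 11f5 and 11f6 could be matched to their group only, and 0 columns were unmapped.

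Counts were rounded and tested with the edgeR quasi-likelihood test (edgeR 4.0.16, R 4.3.3; filterByExpr, TMM), each fit holding the 2 groups compared and p-values adjusted by Benjamini-Hochberg over all genes tested. Calls used adjusted p below 0.01 with more than 1.5 on the log2 scale in either direction, the limit as the study's results word it (its methods word it as a fold change), and adjusted p below 0.05 alone. DESeq2 (1.42.0) was an alternative. The code was tested on simulated data. Normalized counts are TMM-scaled to the mean library. They are not divided by gene length, so levels are compared within a gene only. Intervals are 95% intervals of the fitted change. Correlations between members and with the myelin sum used log2 normalized counts with nothing added, centred on diet. Their p-values came from 100000 permutations within diets, two-sided. The ranking against the members' mean, and the share of all genes beside the Cyp51 relation, used log2(normalized count + 1) and no permutation. Of 40 pairs of libraries within a diet, none agreed within sampling noise.

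Genes named are the members, the smallest p of each pathway list in each comparison, Srebf1, the 5 genes nearest to the members, and, chosen after their values were seen, pathway genes among the nearest 100 and the myelin markers. Some genes that this rule names are not reported here. Members and lists were chosen with earlier results of these data known.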

Additional observations from a re-analysis of the deposited data

Results flagged for a closer look

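Of 24 groups of values (8 members in 3 diets, all 17 libraries), 2 held a library whose distance from its nearest neighbour was large for the range of its group, where chance gives about 1 in 20. Sqle in PF replicate 3 was 1505 normalized counts, with the nearest PF library at 1368 and the farthest at 1312. Cyp51 in PF replicate 6 was 3050.1, with the nearest PF library at 2371 and the farthest at 2217, the gap being 0.815 of the range.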

How the results depend on the processing

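No member passed the stricter threshold under any alternative. With its limit read as a 1.5-fold change, 459 genes passed in ET against PF, 2 in ET against AD and 472 in PF against AD, and 0 members in each. Of 216 member values under other tools, scalings, filters, covariates and samples, 12 changed sign, and of 224 values with 1 library left out, 34 did. The smallest adjusted p of a member was 0.0276 (Cyp51, PF against AD without PF replicate 6), and the largest change was 0.194 on the log2 scale.

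In ET against PF, 349 genes passed the stricter threshold, 664 at adjusted p below 0.05 with no limit on size and 197 with the replicate block. Members with an unadjusted p below 0.05 numbered 2 with all 17 samples (14.4% of all genes) and 1 among left hippocampi (11.7%), and 0 to 1 with 1 library left out (1 without PF replicate 6, beside 2083 of 16002 genes). In ET against AD, 2 genes passed and 0 with the replicate block (edgeR; 432 had an unadjusted p below 0.05 in the main test). All 17 samples turned Idi1 to 0.00992 and Cyp51 to 0.0371. In PF against AD, 327 genes passed, 493 without a filter on low counts and 825 at adjusted p below 0.05. Members with an unadjusted p below 0.05 numbered 1 among left hippocampi (19.0% of all genes) and 0 to 1 with 1 library left out (1 without PF replicate 6, 20.3%). Left hippocampi turned Sqle to 0.0282, and sex as a covariate turned Insig1 to -0.0057, in a fit that rests on the AD sex labels, 2 of which are in doubt. Between the sexes, 1 member had an unadjusted p below 0.05 with all ET and PF samples (1.90% of all genes), and 0 to 1 with 1 library left out (1 without ET replicate 3, 2.22%, and without ET replicate 5, 1.04%). With all 17 samples 3 pairs of members passed an adjusted p of 0.05 by Pearson's r, against 0 with 14. The cause of these shifts was not tested.

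Leaving out 1 library in turn gave these ranges for members that changed sign. In ET against PF they were -0.00703 to 0.0245 for Hmgcs1, -0.0103 to 0.0919 for Insig1, -0.032 to 0.0675 for Srebf2 and -0.0275 to 0.0581 for Dhcr7. In ET against AD they were -0.0387 to 0.0194 for Hmgcs1, -0.083 to 0.016 for Srebf2, -0.0868 to 0.0139 for Idi1, -0.0535 to 0.0236 for Cyp51 and -0.0381 to 0.0471 for Dhcr7. In PF against AD they were -0.0365 to 0.0169 for Hmgcs1, -0.0358 to 0.0325 for Sqle, -0.0203 to 0.0706 for Insig1, -0.0283 to 0.0182 for Fdft1 and -0.0432 to 0.0325 for Dhcr7.

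Replicate numbers name different animals of different litters and did not pair the samples. Same-numbered libraries had a mean correlation of deviations of 0.28 over 2 pairs in ET and PF (-0.0223 and 0.582), -0.0636 over 3 pairs in ET and AD and -0.0288 over 4 pairs in PF and AD. With the number as a replicate block, on numbered libraries only, the sign changed for Hmgcs1 (-0.00578), Insig1 (-0.000537) and Srebf2 (-0.0722) in ET against PF, for Hmgcs1 (0.0165) and Cyp51 (0.0212) in ET against AD, and for Sqle (0.0146), Fdft1 (0.0189) and Dhcr7 (0.043) in PF against AD, and no member was called.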
